A study of Mus musculus with 60 samples.

Results

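Transcripts of 45 genes of G2 phase and mitosis were followed in mouse duodenum organoids that were treated to lose the cell cycle kinase CDK2 or the kinase CDK5. The genes were taken by symbol from a named list, which uses no measured value but was drawn up with earlier results of these data known. All 45 had values in every comparison, among 24905 genes with values in all comparisons and 41018 genes listed. They divide by role into 9 genes of CDK1 activation and mitotic entry, 10 spindle motors and microtubule proteins, 12 genes of the kinetochore, spindle checkpoint and chromosomal passenger complex, 7 genes of chromosome structure, and 7 genes of anaphase, mitotic exit and cytokinesis. In none of 13 comparisons did a member pass the test over all genes, and every member's log2 fold change in every comparison lay between -0.79 and 0.51.

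The organoids, grown in domes of Matrigel with Mouse Intesticult OGM medium, fall by the labels into 20 groups of 3 replicates, 60 samples in all. In the degron groups the genotypes were WT dTAG, HOM CDK2-dTAG and HOM CDK5-dTAG, each kept in DMSO or in dTAG-13 at 250 nM, over 6 or 24 h. dTAG-13 is a small molecule that brings a protein carrying a dTAG fusion to a ubiquitin ligase. In the knockout groups the genotypes were WT cKO and HOM CDK2 cKO, each given DMSO or 1 uM 4-OHT (4-hydroxytamoxifen, a common inducer of Cre recombinase fused to an estrogen receptor), over 24 or 48 h. The labels name neither a Cre driver nor the promoter of any transgene, give no age of the mice, and do not say whether replicates came from separate mice or cultures. The p-values therefore measure only the spread between these samples, which may be technical. RNA was read from the 3′ end of transcripts with a QuantSeq kit. The values are the authors' own comparisons: log2 fold changes with p-values, for 10 comparisons of a treatment with DMSO of the same genotype and time and 3 comparisons of DMSO between times. Single samples were not analysed here, and therefore the level of a gene, its spread over replicates and the depth of each sample are unknown. In bulk RNA, fewer cells in mitosis and less of a transcript per cell cannot be told apart.

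Entry into mitosis is driven by CDK1 bound to cyclin B. The complex is held inactive by phosphorylation and released by CDC25 phosphatases, with Aurora A and PLK1 kinases upstream. The transcripts of these genes and of the spindle and kinetochore machinery rise together late in the cycle under the MuvB complex, B-MYB and FOXM1, and are repressed in resting cells by the DREAM complex. CDK2 acts earlier, with cyclins E and A, in S phase and G2. In the intestine, dividing cells sit in the crypt, and organoids keep this dividing compartment in culture, so the abundance of mitotic transcripts is commonly read as a measure of proliferation. CDK5 is best known from neurons.

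The promoters are shown first, because the late cell cycle program is tied to short promoter elements and the members differ in which of them they carry. RefSeq promoter windows on GRCm38.p6, from 250 bases before to 50 bases after the start of transcription, held 38 of the 45 members by symbol, with no entry for Aurkb, Cdc25c, Foxm1, Incenp, Kif20a, Smc4 and Tpx2. The letters of the cell cycle genes homology region, TTTGAA, the element bound by MuvB, were searched on both strands (TTCAAA on the other strand). They stood in 28 of the 38 members, 73.7%, against 20.2% of 27025 genes with a window. The letters CCAAT, bound by the factor NF-Y, were searched the same way (ATTGG on the other strand) and stood in 31 of 38 members, 81.6%, against 41.1% of genes. A match of one is never a match of the other. Both were present in 26 members, 68.4%, against 8.97% of all genes, and 5 members (Nusap1, Mad2l1, Birc5, Ncaph and Pttg1) had neither. A match is a description of these letters and not a binding site. No other spelling was searched, so a window without these letters was not shown to lack the element. The 120 bases before the start are given here for 8 genes that recur in the results: both B cyclins, Plk1, Cdc20, and the members other than Aurkb with an unadjusted p under 0.05 somewhere. Capitals mark TTTGAA or TTCAAA and CCAAT or ATTGG. The windows lie at chr9:70421555-70421674 on the minus strand for Ccnb2, chr13:100786487-100786606 on the minus strand for Ccnb1, chr7:122159315-122159434 on the plus strand for Plk1, chr4:118437344-118437463 on the minus strand for Cdc20, chr5:45669805-45669924 on the plus strand for Ncapg, chr7:127042421-127042540 on the minus strand for Kif22, chr4:117178773-117178892 on the minus strand for Kif2c and chr11:43425982-43426101 on the minus strand for Pttg1.
Ccnb2: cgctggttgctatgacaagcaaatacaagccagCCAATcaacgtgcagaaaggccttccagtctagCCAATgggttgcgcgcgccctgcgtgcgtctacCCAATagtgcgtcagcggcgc
Ccnb1: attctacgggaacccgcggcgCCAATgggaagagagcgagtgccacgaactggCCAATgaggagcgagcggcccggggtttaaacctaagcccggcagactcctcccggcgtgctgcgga
Plk1: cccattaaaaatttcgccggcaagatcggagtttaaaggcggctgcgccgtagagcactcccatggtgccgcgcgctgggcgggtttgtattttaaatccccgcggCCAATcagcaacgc
Cdc20: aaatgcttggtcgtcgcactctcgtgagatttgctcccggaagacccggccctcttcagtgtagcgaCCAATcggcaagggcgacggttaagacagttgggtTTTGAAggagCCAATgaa
Ncapg: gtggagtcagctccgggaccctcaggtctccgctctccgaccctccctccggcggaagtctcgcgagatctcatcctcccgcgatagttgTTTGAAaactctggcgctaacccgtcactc
Kif22: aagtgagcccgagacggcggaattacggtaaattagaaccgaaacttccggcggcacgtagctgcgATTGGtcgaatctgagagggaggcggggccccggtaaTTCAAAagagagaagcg
Kif2c: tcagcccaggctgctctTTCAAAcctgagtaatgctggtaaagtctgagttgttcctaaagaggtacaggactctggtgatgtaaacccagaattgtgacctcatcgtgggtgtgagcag
Pttg1: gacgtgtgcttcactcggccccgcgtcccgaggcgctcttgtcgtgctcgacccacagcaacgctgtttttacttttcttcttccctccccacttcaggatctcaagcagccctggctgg

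The cyclin B2 promoter had CCAAT at 87, 54 and 21 bases before the start, and the TTTGAA letters 167 bases before and 4 bases after it, outside the printed stretch. The cyclin B1 promoter had CCAAT at 99 and 67 bases and no TTTGAA in its window. Plk1 had CCAAT 14 bases before and the TTTGAA letters 30 bases after the start. In Cdc20 the pair stood close together, with TTTGAA 18 bases and CCAAT 53 and 8 bases before the start. Ncapg had TTTGAA 30 bases and Kif22 TTCAAA 17 bases before the start. Kif2c had TTCAAA at 103 bases with no CCAAT in its window, and Pttg1 had neither in its window. In Kif2c and Pttg1 the printed stretch lies inside the gene as GENCODE M21 annotates it, since these minus-strand genes extend to 117182639 and 43426251. Sequence before those outer ends was not searched. In Ccnb1, Kif22, Cdc20 and Ncapg a part of the printed stretch lies inside the annotated gene. The outer ends of these genes are at 100786570, 127042471, 118437352 and 45669919.

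How large a change could have been seen differs between members. The standard error of a log2 fold change was derived from the deposited value and its p-value, and its median over the 13 comparisons was 0.144 for Ccnb2, which encodes cyclin B2, and 0.402 for Espl1, which encodes separase. The median of the members was 0.211, against 1.17 for all genes. All 45 members belonged to the 9526 genes for which this median was 0.5 or less, here called well measured, so these genes serve as the background below. At its own precision a member needed a log2 change between 0.68 and 1.91 for a Bonferroni p under 0.05, with a median of 1.00, a 2.00-fold change.

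No mitosis gene was called. At FDR p under 0.05 over all genes 0 of 45 members passed in each comparison, and the lowest FDR p of any member anywhere was 0.989 in the authors' deposited table. The background was 0% of genes called in 9 of the 13 comparisons. In the other comparisons it was 0.0642% (WT-cKO with 4-OHT at 24 h), 0.0241% (CDK2-cKO with 4-OHT at 48 h), 0.0803% (WT-dTAG DMSO, 24 against 6 h) and 0.0361% (CDK2-dTAG DMSO, 24 against 6 h). At an unadjusted p under 0.05, 9 of 585 member values passed, 1.54%, beside 2.73% of the values of the well measured genes pooled over the same comparisons. Evenly spread p-values would give 5%. The share of the well measured genes was 0.945% to 4.15% in the treatment comparisons and 2.32% to 6.33% in the DMSO time comparisons. The deposited p-values may therefore be conservative, and the errors and intervals derived from them too wide. These 9 values belonged to 6 members: Ccnb2, Aurkb, Kif2c, Kif22, Ncapg and Pttg1. The 95% intervals bound what may have been missed. Of the 585 intervals, 564 lay within a 2-fold change in either direction (log2 between -1 and 1) and 235 within a log2 of 0.5. The 21 that reached further belonged to Cdc25c and Espl1 (7 each), Cenpf and Mki67 (2 each) and Foxm1, Kif2c and Aurkb (1 each).

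**Figure D1:**
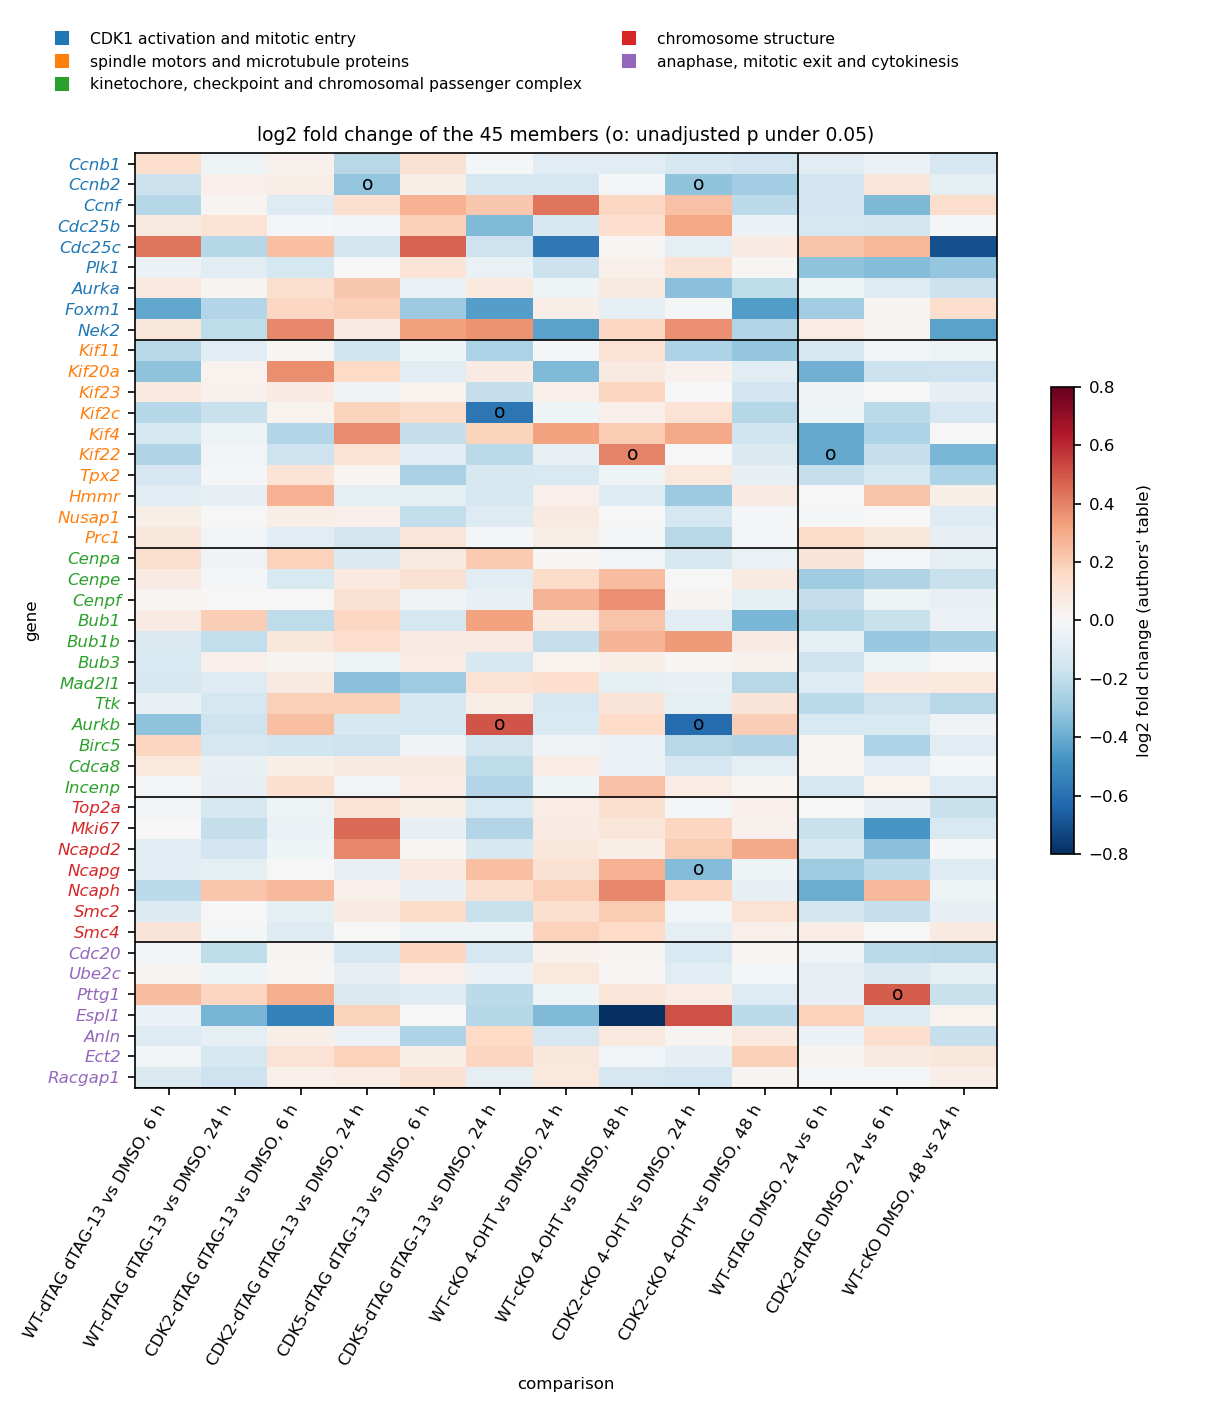
Log2 fold change of each of the 45 members (rows, coloured by role) in the 13 comparisons of the authors' deposited table (columns); red is higher in the condition named first, blue lower, and a circle marks an unadjusted p under 0.05. Colours are pale nearly everywhere, the 9 circles are scattered over 6 genes, and the deepest colours sit in Espl1 and Cdc25c, the members with the widest errors.

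Before CDK2 degradation is read, dTAG-13 in WT-dTAG organoids gives the background of the compound. At 6 h the log2 fold change was positive in 18 of 45 members, their median being -0.05 against 0.00 for the well measured genes, and 0 members had an unadjusted p under 0.05 (background 0.945%). At the ends of the range stood Cdc25c, a phosphatase that activates CDK1, at 0.43 and Foxm1, the transcription factor of the program, at -0.41 (the authors' deposited table). At 24 h 11 of 45 were positive with a median of -0.06 (well measured genes 0.01), and 0 had an unadjusted p under 0.05 (background 1.45%). Here the condensin subunit gene Ncaph stood highest at 0.22 and Espl1 lowest at -0.37 in the authors' deposited table. No member had a 95% interval that excluded 0 at either time.

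CDK2 degradation for 6 h gave small values in both directions. Positive values were seen for 29 of 45 members, the median being 0.03 against -0.01 for the well measured genes, and 0 had an unadjusted p under 0.05 (background 1.42%). The highest were Nek2, a centrosome kinase, at 0.39, the cytokinesis kinesin Kif20a at 0.37 and Pttg1, the separase inhibitor securin, at 0.29 in the authors' deposited table. The lowest were Espl1 at -0.54, the chromokinesin Kif4 at -0.23 and the checkpoint kinase Bub1 at -0.21 in the authors' deposited table. The 95% interval of each of these values included 0. The members' median standard error was 0.238 here and 0.239 in the DMSO time comparison of the same genotype, against 0.205 in WT-dTAG at 6 h. Both wider comparisons use the CDK2-dTAG DMSO group at 6 h, and the number of libraries that entered each fit is not given in the sources used here.

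After 24 h of dTAG-13 the cyclin B genes were on the low side in CDK2-dTAG organoids and several chromosome structure genes on the high side. Of 45 members 24 were positive, with a median of 0.04 against 0.01 for the well measured genes. Ccnb2 was the 1 member with an unadjusted p under 0.05 (background 1.63%), at a log2 fold change of -0.31 (95% interval -0.60 to -0.03, unadjusted p = 0.0330, FDR p = 0.996) in the authors' deposited table. Ccnb1, the gene of the other B cyclin, stood at -0.22 (95% interval -0.57 to 0.13) and Mad2l1, the checkpoint protein MAD2, at -0.34 (-0.81 to 0.14) in the authors' deposited table. At the top were the proliferation marker Mki67 at 0.45 (95% interval -0.29 to 1.19), the condensin gene Ncapd2 at 0.39 (-0.01 to 0.78) and Kif4 at 0.38 in the authors' deposited table. Thus the best known proliferation marker and the cyclin B genes had opposite signs, and neither passed the test. In the authors' comparison of CDK2-dTAG DMSO at 24 against 6 h, Mki67 and Ncapd2 had their lowest values, -0.47 and -0.33. Ccnb2 had its highest there, 0.09. Both comparisons use the 24 h DMSO group, so these values are not independent, and the part of that group was not tested. With dTAG-13 against DMSO at 24 h in CDK2-dTAG organoids, 12 of 12 crypt stem cell markers were positive, with a median of 0.37 and 0 called. These marker values rest on the same 24 h DMSO group. Their part in the members' values was not tested.

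Knockout groups were read in the same order. In WT-cKO organoids 4-OHT for 24 h left 25 of 45 members positive. Their median was 0.03 against -0.02 for the well measured genes, but their mean weighted by precision was -0.0018, and 0 with an unadjusted p under 0.05 (background 1.43%). Ccnf, the F-box protein cyclin F, was highest at 0.43 and Cdc25c lowest at -0.57 in the authors' deposited table. All 7 chromosome structure genes were positive, with a median of 0.12. Spermatid transcripts were listed because earlier results of these data had shown them high in this comparison, so their values here are no test. In this comparison 14 of 14 were positive with a median of 5.36, and 7 of them were called, a signal foreign to duodenum. Its part in the members' values was not tested.

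At 48 h of 4-OHT the mitosis genes of WT-cKO organoids leaned upward. Of 45 members 31 were positive, with a median of 0.07 against -0.01 for the well measured genes, of which 47.3% were positive. Kif22, a chromokinesin, was the 1 member with an unadjusted p under 0.05 (background 3.26%), at 0.40 (95% interval 0.00 to 0.79, unadjusted p = 0.0477, FDR p = 0.997) in the authors' deposited table. Ncaph at 0.38 and the kinetochore protein gene Cenpf at 0.37 followed, and Espl1 was lowest at -0.79 (95% interval -1.59 to 0.01) in the authors' deposited table. Again all 7 chromosome structure genes were positive, with a median of 0.15. Enterocyte markers were lower in the same comparison, with 1 of 14 positive and a median of -0.78, and their part in the members' values was not tested.

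In CDK2-cKO organoids 4-OHT for 24 h gave 3 of 45 members with an unadjusted p under 0.05 (background 2.2%), each with a negative value, and 2 once values were centred on the well measured genes. Aurkb, the kinase of the chromosomal passenger complex, stood at -0.61 (95% interval -1.05 to -0.18, unadjusted p = 0.00548, FDR p = 0.990) in the authors' deposited table. Ncapg, a condensin subunit, was at -0.35 (95% interval -0.68 to -0.01, unadjusted p = 0.0406, FDR p = 0.990) in the authors' deposited table. Ccnb2 was at -0.32 (95% interval -0.60 to -0.04, unadjusted p = 0.0247, FDR p = 0.990) in the authors' deposited table. None passed over all genes. Of all members 18 of 45 were positive, with a median of -0.02 beside -0.02 for the well measured genes, and a mean weighted by precision of -0.06. Espl1 at 0.51, Nek2 at 0.37 and the checkpoint kinase gene Bub1b at 0.34 were highest, and Aurka, the Aurora A kinase, at -0.34 was the third lowest in the authors' deposited table. Stem cell markers were positive in 12 of 12 with a median of 0.40, where 47.3% of the well measured genes were positive. Their part in the members' values was not tested.

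At 48 h of 4-OHT in CDK2-cKO organoids most mitotic entry genes and spindle motors had negative values and most S phase genes positive ones, with 95% intervals that included 0 for every member. Among members 18 of 45 were positive, as many as at 24 h, with a median of -0.05 against -0.02 for the well measured genes and a mean weighted by precision of -0.05, and 0 had an unadjusted p under 0.05 (background 4.15%). By role, 7 of 9 entry genes (median -0.20) and 9 of 10 spindle genes (median -0.10) were negative, and 5 of 7 chromosome structure genes (median 0.04) were positive. Lowest were Foxm1 at -0.45 (p = 0.110), Bub1 at -0.37 and the spindle motor gene Kif11 at -0.31 in the authors' deposited table. Highest were Ncapd2 at 0.31, Aurkb at 0.20 and Ect2, a cytokinesis exchange factor, at 0.19 in the authors' deposited table. Of 36 genes of G1/S and replication 30 were positive with a median of 0.23, and 4 of them had an unadjusted p under 0.05. The same list also leaned upward in WT-cKO organoids at 48 h, with 31 of 36 positive and a median of 0.14, and 21 of 36 were positive in the difference between the genotypes, with a median of 0.06. The 4 genes in CDK2-cKO organoids were Fen1 at 0.43, Mcm2 at 0.41, Lig1 at 0.31 and Rrm1 at 0.31 in the authors' deposited table, and none was called. In the same comparison stem cell markers had a median of 0.31 and enterocyte markers of -0.36, and their part in the members' values was not tested.

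**Figure D2:**
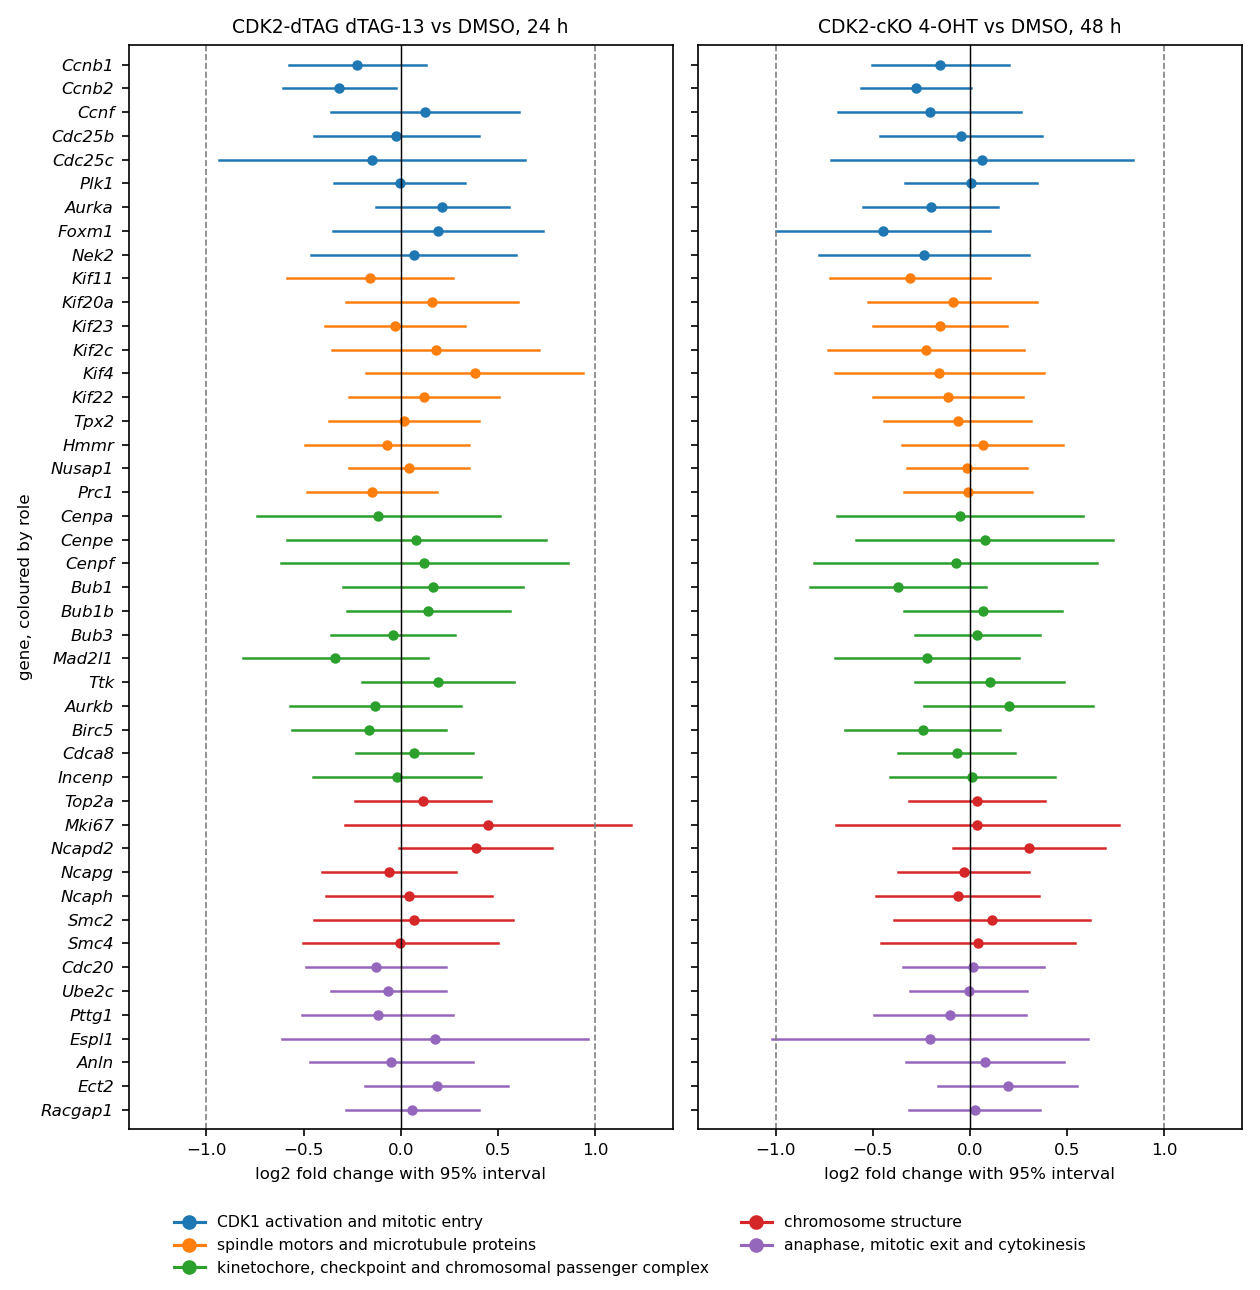
Log2 fold change (points) with derived 95% intervals (bars) of the 45 members, coloured by role, after 24 h of dTAG-13 in CDK2-dTAG organoids (left) and after 48 h of 4-OHT in CDK2-cKO organoids (right); dashed lines mark a 2-fold change. Nearly every bar crosses 0; the bar of Ccnb2 at left ends at -0.03, and the bar of Mki67 at left reaches 1.19.

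Cyclin B2 was the member with the smallest errors, and its value is given for every comparison. In the CDK2 groups it stood at 0.05 after 6 h and -0.31 after 24 h of degradation, and at -0.32 after 24 h and -0.28 after 48 h of knockout in the authors' deposited table. In wild type it stood at -0.17 and 0.04 with dTAG-13 at 6 and 24 h, and at -0.13 and -0.01 with 4-OHT at 24 and 48 h in the authors' deposited table. For CDK5 degradation the authors' deposited table gives 0.05 and -0.13. With time in DMSO it gives -0.15 in WT-dTAG, 0.09 in CDK2-dTAG and -0.07 in WT-cKO organoids, by the authors' deposited table. The later CDK2 values were thus the 3 lowest of the 10 treatment comparisons. The test of the difference from wild type did not pass at any of them, with -0.35 (95% interval -0.76 to 0.05) for degradation at 24 h, -0.19 (-0.58 to 0.21) for knockout at 24 h and -0.27 (-0.67 to 0.13) for knockout at 48 h. Ccnb2 was picked out after its values were seen. The gene lies at GRCm38 chromosome 9, 70407692 to 70421547, minus strand.

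Degradation and knockout share no samples, so the members can be set side by side. Between 24 h of degradation and 24 h of knockout 27 of 45 members had the same sign, against 62.6% of the well measured genes. Across the members Pearson's r was 0.50 and Spearman's rho 0.49, and across the well measured genes they were 0.22 and 0.29. These are descriptions over genes, which share libraries and are not replicates. Between 24 h of degradation and 48 h of knockout 21 of 45 members and 5429 of the 9526 well measured genes had the same sign, with r of 0.13 across the members. Between 6 h of degradation and 24 h of knockout 20 of 45 members had the same sign, with r of -0.26 and rho of -0.13, and 49.5% of the well measured genes did. Whether these pairs differ was not tested.

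With dTAG-13 in CDK5-dTAG organoids every member's 95% interval included 0 at 6 h. Positive values were found for 24 of 45, the median being 0.03 (well measured genes 0.00), and 0 had an unadjusted p under 0.05 (background 1.23%). Highest were Cdc25c at 0.47, Nek2 at 0.33 and Ccnf at 0.28, and lowest were Foxm1 at -0.29, Mad2l1 at -0.28 and the spindle assembly factor Tpx2 at -0.26 (the authors' deposited table). At 24 h 15 of 45 were positive, with a median of -0.09 against -0.02 for the well measured genes. Of 45 members 2 had an unadjusted p under 0.05 (background 3.58%). Kif2c, a microtubule-depolymerising kinesin, stood at -0.58 (95% interval -1.09 to -0.07, unadjusted p = 0.0261) and Aurkb, which phosphorylates it, at 0.51 (95% interval 0.07 to 0.95, unadjusted p = 0.0245) in the authors' deposited table, both with FDR p = 1.00. Foxm1 at -0.44 and the phosphatase gene Cdc25b at -0.35 were also among the lowest in the authors' deposited table. In the same comparison enterocyte markers were positive in 13 of 14 with a median of 0.21, and Paneth cell markers in 0 of 8 with a median of -0.22. Their part in the members' values was not tested.

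**Figure D3:**
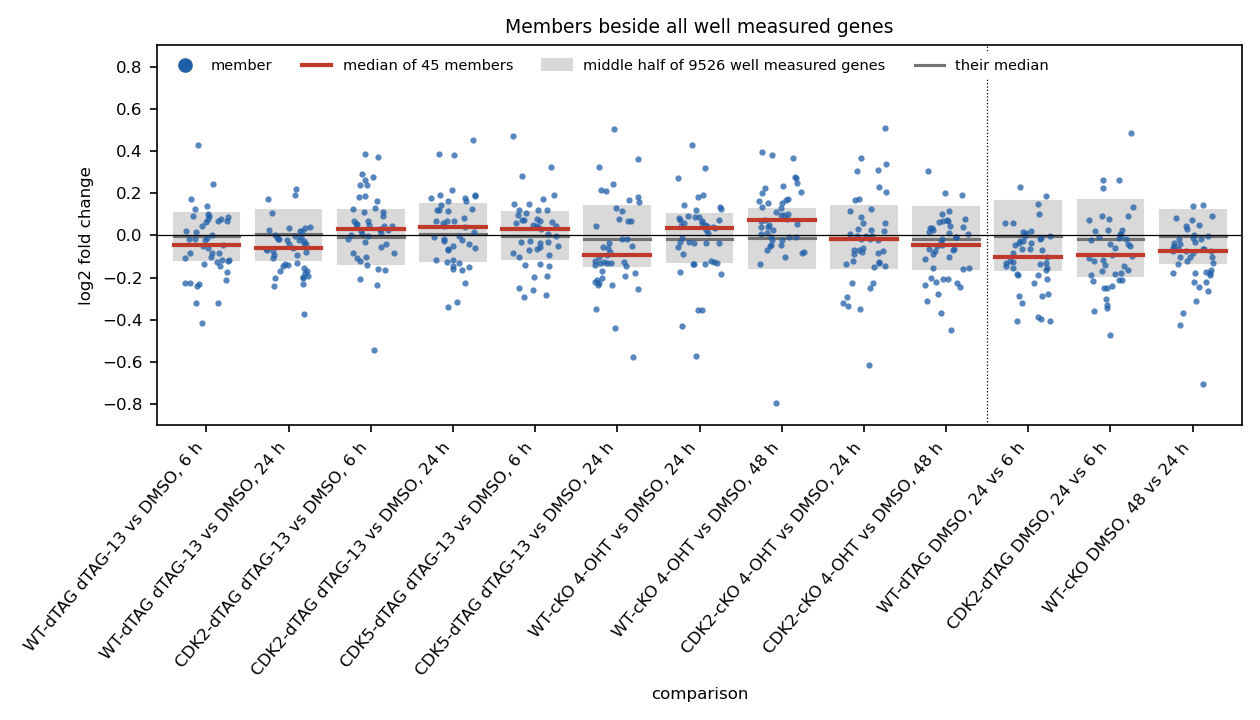
Log2 fold change of the 45 members (blue points, spread sideways for visibility) in each comparison, with their median (red) beside the median (grey line) and the lower and upper quartile (grey box) of the 9526 well measured genes. The members' medians lie between -0.10 and 0.07, inside the grey boxes everywhere, and below the grey median in each of the 3 DMSO time comparisons right of the dotted line.

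Most members had negative values with time in DMSO, in each of the 3 comparisons. At 24 against 6 h in WT-dTAG organoids 36 of 45 members were negative with a median of -0.10, where 49.8% of the well measured genes were positive. Kif22 was at -0.41 (95% interval -0.78 to -0.03, unadjusted p = 0.0322), Kif4 at -0.41 and Ncaph at -0.40 in the authors' deposited table, and Kif22 was the 1 member with an unadjusted p under 0.05 (background 6.33%). At 24 against 6 h in CDK2-dTAG organoids 31 of 45 were negative with a median of -0.09. There Mki67 was lowest at -0.47, followed by Ccnf at -0.36 and Plk1 at -0.34, and Pttg1 was at 0.48 (95% interval 0.04 to 0.93, unadjusted p = 0.0325) in the authors' deposited table, the 1 member with an unadjusted p under 0.05 (background 5.58%). At 48 against 24 h in WT-cKO organoids 36 of 45 were negative with a median of -0.07, led by Cdc25c at -0.71, Nek2 at -0.43 and Kif22 at -0.37 in the authors' deposited table. There 0 members had an unadjusted p under 0.05 (background 2.32%).

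These 3 time comparisons share no samples with each other. Negative in all 3 were 24 of the 45 members, 53.3%, against 19.6% of the well measured genes, and positive in all 3 were 2 members, Smc4 and Ect2, 4.44% against 18.3%. Plk1, the kinase that drives entry and spindle assembly, was the most even: -0.32 (95% interval -0.66 to 0.01), -0.34 (-0.72 to 0.03) and -0.31 (-0.65 to 0.03) in the authors' deposited table. No single member passed in any of them, so this is a lean of a group of small values. Members share libraries and are not replicates, and these shares were not tested. As a description across members, r was 0.34 between both degron genotypes and -0.08 between WT-dTAG and WT-cKO. Across the well measured genes r was higher in both pairs, at 0.46 and 0.07. Genes of G1/S and replication were negative alongside, in 27 of 36, 27 of 36 and 32 of 36, with medians of -0.12, -0.09 and -0.14. Stem cell markers had medians of -0.45, -0.22 and 0.09, and enterocyte markers of -0.03, -0.13 and 0.58, so that the marker shift was not the same in all 3; its part in the members' lean was not tested. The DMSO groups of these comparisons are also the controls of treatment comparisons, so a value in one is not independent of a value in the other.

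Whether a response depended on genotype or time was tested as a difference of responses, in 12 such tests that combine groups without overlap. No member passed after Benjamini-Hochberg adjustment over 24905 genes, and 0% of genes did in any of the 12. At an unadjusted p under 0.05, 7 of 540 member values passed. Against wild type at 6 h, Kif20a differed by 0.69 in CDK2-dTAG organoids (95% interval 0.06 to 1.33, background 1.54%). Kif20a stood at 0.37 in CDK2-dTAG and at -0.32 in WT-dTAG organoids in the authors' deposited table. At 24 h 0 members passed this mark for CDK2-dTAG (background 1.73%), where Ncapd2 came nearest at 0.54 (-0.01 to 1.09). For CDK5-dTAG 0 members passed it at 6 h (background 1.08%), and at 24 h Aurkb differed by 0.67 (0.06 to 1.29; background 2.86%). In CDK2-cKO against WT-cKO organoids Nek2 differed by 0.80 at 24 h (0.06 to 1.54; background 1.6%). None of these values passed the adjustment over all genes.

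At 48 h the response of CDK2-cKO organoids was lower than that of WT-cKO organoids in 36 of 45 members, with a median difference of -0.11 against -0.01 for the well measured genes, of which 48.95% were positive. By role 8 of 9 entry genes (median -0.27), 9 of 10 spindle genes (median -0.21), 10 of 12 kinetochore genes (median -0.16) and 6 of 7 chromosome structure genes (median -0.09) were negative, and 3 of 7 exit genes. The lowest were Bub1 at -0.59 (95% interval -1.23 to 0.04) and Kif22 at -0.51 (-1.06 to 0.04). No member had an unadjusted p under 0.05 (background 1.56%). The members' median was 0.07 in WT-cKO and -0.05 in CDK2-cKO organoids. The spermatid transcripts seen above had a median of 1.06 in WT-cKO organoids at 48 h. In the same difference enterocyte markers were positive in 13 of 14 with a median of 0.27, and their part was not tested.

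Between times within a genotype, 0 members had an unadjusted p under 0.05 for dTAG-13 in WT-dTAG (background 1.07%) and in CDK2-dTAG (background 1.56%) organoids, and 0 for 4-OHT in WT-cKO organoids (background 1.6%). In CDK5-dTAG organoids the response at 24 h differed from that at 6 h by -0.73 for Kif2c (95% interval -1.44 to -0.02) and by 0.65 for Aurkb (0.04 to 1.26; background 2.05%). In CDK2-cKO organoids Aurkb differed by 0.81 between 48 and 24 h (0.20 to 1.43; background 1.5%). The DMSO time change differed between CDK2-dTAG and WT-dTAG organoids by 0.66 for Ncaph (0.02 to 1.30; background 1.04%). Aurkb accounts for 3 of the 7 values, and 2 of these use the same value of CDK5-dTAG organoids at 24 h.

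Aurkb is therefore given in full. It stood at -0.32 and -0.17 with dTAG-13 in wild type at 6 and 24 h, at 0.24 and -0.13 with CDK2 degradation, and at -0.14 and 0.51 with CDK5 degradation in the authors' deposited table. With 4-OHT it stood at -0.12 and 0.15 in wild type and at -0.61 and 0.20 in CDK2-cKO organoids at 24 and 48 h in the authors' deposited table. With time in DMSO it was between -0.12 and -0.03 in the authors' deposited table. Its sign was not the same across the CDK2 comparisons. Its partners in the chromosomal passenger complex, the scaffold gene Incenp, survivin (Birc5) and borealin (Cdca8), were at 0.06, -0.22 and -0.13 in CDK2-cKO organoids at 24 h in the authors' deposited table. In CDK5-dTAG organoids at 24 h they were at -0.24, -0.15 and -0.20 in the authors' deposited table, with Aurkb on the other side. The gene lies at GRCm38 chromosome 11, 69045647 to 69051664, plus strand.

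The genes around the members were read from lists of the same pathway. Of 81 other mitosis genes 0 were called in any comparison, and their medians ran from -0.08 to 0.09, with the sign of the members' median except at 6 h of dTAG-13 in CDK2-dTAG and CDK5-dTAG organoids. Cdk1, the mitotic kinase itself, lay between -0.16 and 0.08 in all 13 comparisons in the authors' deposited table. Ccna2, which encodes cyclin A2, lay between -0.18 and 0.19 in the authors' deposited table. Mybl2, which encodes B-MYB, was wider, at 0.59 (unadjusted p = 0.0189) with CDK2 degradation at 24 h and -0.83 (unadjusted p = 0.00222, FDR p = 0.780) in CDK2-dTAG DMSO at 24 against 6 h in the authors' deposited table. These comparisons share the 24 h DMSO group. Of 15 genes of the anaphase promoting complex, which ends mitosis by marking securin and cyclin B for destruction, 0 were called. Of 22 p53 targets and CDK inhibitors, not all of which act on the cycle, 0 were called. Their median was 0.01 after 24 h of CDK2 degradation and 0.21 after 48 h of CDK2 knockout, 14 of 22 positive. In the knockout comparison 46.9% of the well measured genes were positive. Whether this list differed as a group from WT-cKO organoids was not tested.

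**Figure D4:**
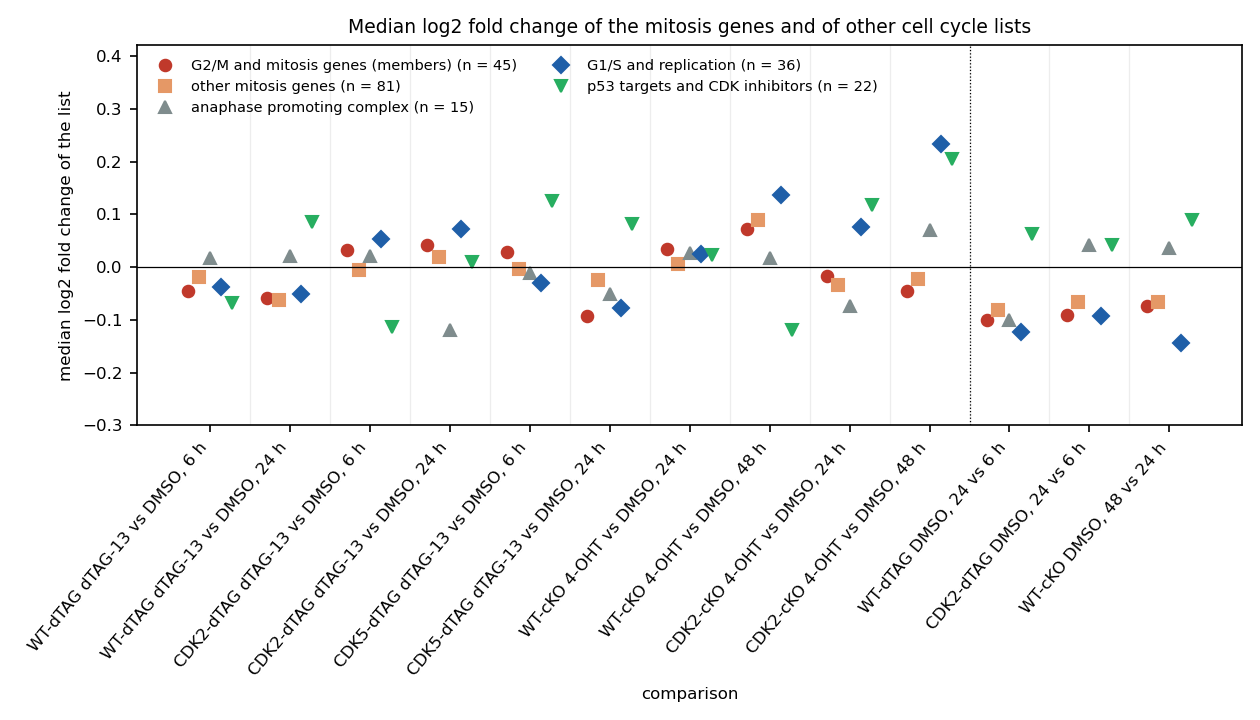
Median log2 fold change of the 45 members and of 4 other cell cycle lists in each comparison; the dotted line separates treatment from DMSO time comparisons. Members and other mitosis genes stay close together, and at 48 h of 4-OHT in CDK2-cKO organoids the G1/S list lies at 0.23 and the p53 and CDK inhibitor list at 0.21, against -0.05 for the members.

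Among themselves the members varied in how far their values spread over the 13 comparisons. Espl1 had the widest range, 1.31 from lowest to highest, followed by Cdc25c with 1.18, Aurkb with 1.12 and Mki67 with 0.92. The narrowest were the ubiquitin conjugating enzyme gene Ube2c with 0.198, the checkpoint gene Bub3 with 0.224 and the spindle protein gene Nusap1 with 0.270. The standard error of Aurkb, 0.222, was near the members' median of 0.211, while those of Espl1, Cdc25c and Mki67 were 0.402, 0.397 and 0.374. Centromeric histone Cenpa (range 0.341, standard error 0.318) and Smc4, a condensin ATPase (0.287 and 0.257), had narrow ranges with standard errors above that median. Cenpe, Ttk, Kif23, Hmmr, Prc1, Incenp, Top2a, Smc2, Anln and Racgap1 had ranges between 0.287 and 0.569, around the median of 0.474 over all members.

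The longest annotated transcript of a member (GENCODE M21, GRCm38) ran from 1531 bases for Ccnb2 to 11130 for Cenpf, with a median of 3668, and Spearman's rho between length and standard error across the 45 members was 0.43, a description without a test. Mki67, the gene most often used to mark dividing cells, has a transcript of 10061 bases and a standard error of 0.374. Exons of 4 members overlap another annotated gene on the same strand and those of 13 members one on the opposite strand, among them Kif22 with Gm31749, Ncapg with Lcorl and Cdc20 with Elovl1. How reads were assigned there is not given in the sources used here, so values of such members may hold reads of the neighbour.

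**Figure D5:**
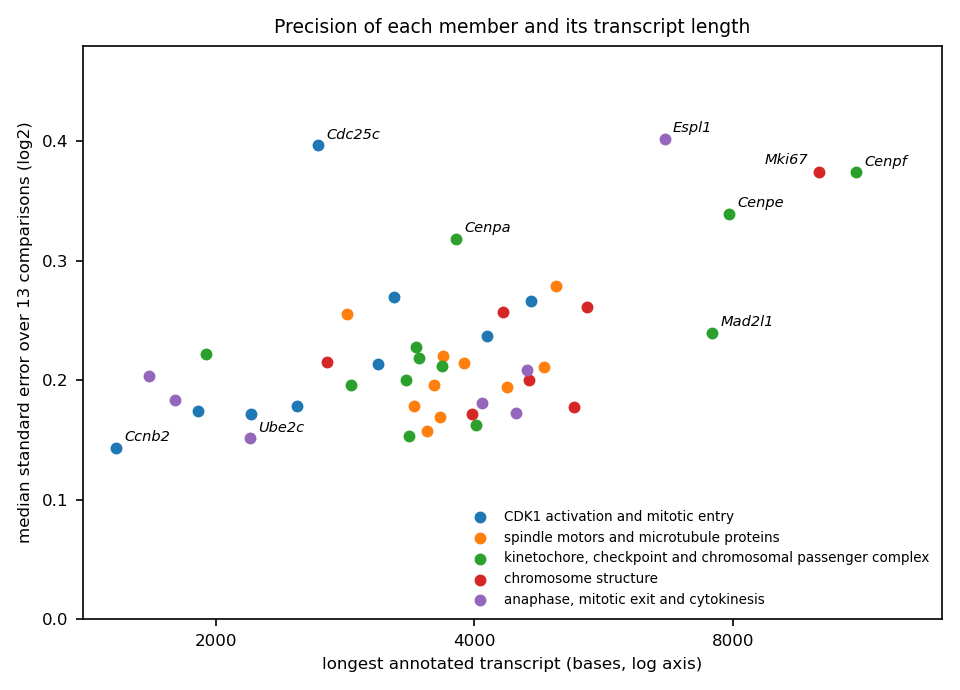
Median standard error of each member's log2 fold change over 13 comparisons against the length of its longest annotated transcript (log axis), coloured by role. Ccnb2 sits lowest at 0.144, and Espl1, Cdc25c, Mki67 and Cenpf sit highest, between 0.374 and 0.402.

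The targeted genes give the check that RNA allows. Cdk2 stood at 0.06 and 0.16 with dTAG-13 in CDK2-dTAG organoids, and at -0.35 and -0.64 with 4-OHT in CDK2-cKO organoids at 24 and 48 h, beside 0.26 and -0.53 in WT-cKO organoids (the authors' deposited table). The authors' deposited table gives -0.39 and -0.30 for Cdk5 in CDK5-dTAG organoids. None had FDR p under 0.05. Degradation acts on protein, and a 3′ tag outside a deleted exon checks nothing, so these values do not show whether either kinase was lost. The labelled tissue was read through its markers: 12 of 12 stem cell and 12 of 14 enterocyte markers were well measured, against 1 of 7 immune, 1 of 5 endothelial and 1 of 14 spermatid markers.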

How the data were processed

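RNA of 60 mouse duodenum organoid samples was made into QuantSeq 3′ libraries, per the labels' protocols, and grouped by the labels alone. Salmon is named without a version in the submitters' processing notes; not given in the sources used here were the genome build, annotation, normalization, filters and test. Per the file headers, the authors' deposited table holds, for 13 comparisons, per gene a log2 fold change, the same as a linear fold (ratio), a raw p-value, and p adjusted by FDR and by Bonferroni. It was checked, to a relative tolerance of 1e-06, that the fold is 2 to the power of the log2 value, that FDR p is a Benjamini-Hochberg adjustment and that Bonferroni p is p times the number of genes. The test planned for counts per sample could not be used on a table of comparisons, so the deposited test was read over all genes (two-sided, called at FDR p under 0.05).

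Dividing the absolute log2 value by the normal quantile of p (two-sided) gave a derived standard error, which assumes a Wald-type test. Intervals are 95% normal intervals. A difference between responses subtracts one log2 fold change from another, taking their errors as independent, with Benjamini-Hochberg adjustment over 24905 genes. It was run on simulated data whose p-values came from the same normal model and whose planted changes were larger than any member's difference. The simulation therefore does not show how the test performs at the sizes seen here or under the unstated deposited test. Genes whose standard error had a median no higher than 0.5 over the comparisons were called well measured. The sources name no depth, and precision is given by the standard errors.

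The members and lists were chosen with earlier results of these data known. Members named are those with an unadjusted p under 0.05, and the 3 highest and 3 lowest of each CDK2 treatment comparison and of CDK5-dTAG at 6 h. In the other comparisons, those of wild type among them, fewer of the highest and lowest were named. Ccnb2, Aurkb and Plk1 in full, and the genes of the other lists beyond the 4 with the smallest p, were chosen after their values were seen. Calculations used Python 3.11.15, pandas 2.3.3 and scipy 1.17.1. Positions are from GENCODE M21, which held 95.9% of the symbols, and sequences from RefSeq on GRCm38.p6. Alternatives were another adjustment, subsets of genes, centring, weighting and a t quantile.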

Additional observations from a re-analysis of the deposited data

How the results depend on the processing

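The count of called members stayed at 0 in all 13 comparisons with a Bonferroni adjustment and with adjustment over the 11826 genes whose standard errors had a median up to 1, and in all 13 comparisons and 12 differences with adjustment over the well measured genes alone. Centring moved the log2 scale by -0.02 to 0.01. The members' median stayed closer to its reported value than their standard error under every alternative run, but its sign turned in WT-cKO organoids at 24 h of 4-OHT, from 0.03 to -0.0018 as a mean weighted by precision. In CDK2-cKO organoids at 24 h the members with an unadjusted p under 0.05 went from 3 to 2 on centring. With a t quantile of 4 degrees of freedom in place of the normal one, members with an unadjusted p under 0.05 went from 0 to 1 in the difference between CDK2-dTAG and WT-dTAG at 24 h, and from 1 to 2 in that between CDK2-cKO and WT-cKO at 24 h. No paired analysis was possible because the table of comparisons carries no sample columns and no replicate numbers; for the same reason no replicate could be left out, and the alternatives planned for counts (normalization, low count filter, another tool) were not run. The limits are the missing levels and depths, an unstated test and an error that was derived, not measured.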
